A study of Mus musculus with 3 samples.

Results

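The S100 calcium-binding proteins and annexins described here are 10 genes: S100a1, S100a4, S100a6, S100a8, S100a9, S100a10, S100a11, S100a13, Anxa1 and Anxa2. They were taken by symbol through GENCODE M21, and each of the 10 matched 1 gene among 55536 genes in the larger deposited gene table. Polyadenylated RNA had been sequenced from mouse primary cells annotated as activated regulatory T cells, a suppressive CD4 lineage whose identity rests on the transcription factor Foxp3. The animal was a male of 9 weeks from a strain named Foxp3GFP-DTRCD4CreERT2R26tdTomato: its Foxp3 allele carries a fluorescent protein and a diphtheria toxin receptor, an inducible Cre is driven by CD4, and a red reporter sits at Rosa26. All 3 libraries, numbered technical replicates 1, 2 and 3, share this genotype and 1 biological replicate, with no treatment named in the labels and no resting or other population beside them. Levels are therefore described without a contrast, and every SD or p-value speaks only of scatter among libraries made from a single biosample, possibly all technical.

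S100 proteins are small EF-hand proteins, mostly dimers, that change shape on binding calcium and then bind target proteins. Annexins bind acidic phospholipids in a calcium-dependent way and take part in membrane repair, vesicle traffic and the membrane skeleton. Members of both families pair with each other: S100a10 and Anxa2 form a tetramer at the plasma membrane, and S100a11 binds Anxa1. In T cells S100a4, S100a6, S100a10, S100a11, Anxa1 and Anxa2 are known mainly from effector and memory states, whereas S100a8 and S100a9, which together make calprotectin, are abundant in neutrophils and monocytes.

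The 8 S100 members share the second EF-hand, whose loop of 36 coding bases is given because it shows how far the genes differ in the bases that reads are assigned by. Each loop was read from the GENCODE M21 transcript with the highest TPM among the coding ones (mm10), on the strand of the gene, and capitals mark the 7 bases that are the same in all 8. It was located in the translated coding sequence by a pattern of acidic, hydrophobic and phenylalanine codons, widened so that it also takes S100a10. The codons that this pattern requires fix all 7 capital bases, so their sameness follows from the search and is not a result.
S100a1, exon 3, chr3:90511284-90511319, minus strand: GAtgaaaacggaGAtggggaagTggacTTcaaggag
S100a4, exon 3, chr3:90605785-90605820, plus strand: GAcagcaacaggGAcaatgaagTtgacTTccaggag
S100a6, exon 3, chr3:90614233-90614268, plus strand: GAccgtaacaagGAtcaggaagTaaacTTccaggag
S100a8, exon 3, chr3:90669872-90669907, plus strand: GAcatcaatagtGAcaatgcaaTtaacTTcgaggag
S100a9, exon 3, chr3:90692851-90692886, minus strand: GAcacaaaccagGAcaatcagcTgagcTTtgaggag
S100a10, exon 3, chr3:93564288-93564323, plus strand: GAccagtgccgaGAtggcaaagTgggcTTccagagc
S100a11, exon 3, chr3:93526037-93526072, plus strand: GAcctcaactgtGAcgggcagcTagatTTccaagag
S100a13, exon 4, chr3:90524389-90524424, plus strand: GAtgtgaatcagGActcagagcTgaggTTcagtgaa

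Between pairs of loops, 13 to 29 of the 36 bases were identical, with the 7 bases fixed by the search pattern included. The S100a4 and S100a8 loops were the closest pair, with 29 identical bases, and S100a4 and S100a6 shared 28. The loops of S100a13 and S100a10 stood furthest from the rest, with a median of 17 and 18 bases identical to the other 7. S100a10 is known for having lost calcium binding in its EF-hands and for holding an active shape without it. Over the aligned coding bases, with gaps left out, the 28 pairs were 56.4 to 73.2% identical. The highest value, for S100a4 and S100a13, rests on 291 aligned bases, where S100a13 has 480 coding bases. The longest run shared by any pair of transcripts was 19 bases, between S100a6 and S100a9. No window of 50 bases was shared between any 2 members. That window is 1 base longer than 49, the median difference between transcript length and effective length in the deposited tables. Windows were shared with other genes in S100a11 and S100a4 only. In S100a11, 190 of 462 windows (41.1%) occurred in 3 processed pseudogenes, of which Gm12854 was the highest, at 16.2, 22.2 and 26.8 estimated counts in replicates 1, 2 and 3 against 6138, 4585 and 5336 for S100a11. In S100a4, 253 of 449 windows (56.3%) also lie in the overlapping gene Gm42674 on the same strand, which had no count in any library. The levels of both genes depend on how the quantifier divided such reads.

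S100a10 and S100a11 were the most abundant of the 10 genes. Levels are given as TPM, a scale that divides counts by transcript length and then by a library-wide sum, and so allows genes to be compared. S100a10 (ENSMUSG00000041959.14, chromosome 3, 93555080 to 93564643, mm10), the light chain of the Anxa2 tetramer, was at 1221, 1242 and 1221 TPM in replicates 1, 2 and 3, a mean of 1228 ± 11.9 TPM (SD, n = 3). That placed it at rank 80 of the protein-coding genes. The 3 libraries were nearly equal. S100a11 (ENSMUSG00000027907.4, chromosome 3, 93520488 to 93526287), a partner of Anxa1, was at 1005, 716 and 979 TPM (900.3 ± 159.8 TPM, SD, n = 3) and at rank 118. Replicate 2 was low and the other two were alike. Every S100a10 value lay above every S100a11 value.

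S100a6 and S100a4, neighbours in the genome, followed. S100a6 (ENSMUSG00000001025.8, chromosome 3, 90612882 to 90624181), also called calcyclin, was at 468, 393 and 562 TPM (475 ± 84.7 TPM, SD, n = 3). S100a4 (ENSMUSG00000001020.8, chromosome 3, 90603771 to 90606045), which binds non-muscle myosin, was at 339.8, 339 and 374 TPM (351 ± 20.01 TPM, SD, n = 3). S100a6 exceeded S100a4 in every library and the ranges did not overlap, with replicate 3 highest for both. S100a13 (ENSMUSG00000042312.9, chromosome 3, 90514435 to 90524581), which takes part in the unconventional export of growth factors, was at 158, 148 and 156 TPM (154 ± 5.37 TPM, SD, n = 3). These 5 genes made up 99.8% of the summed TPM of the 16 S100 genes listed and measured, in which S100a10 took 39.6% ± 3.54 and S100a11 28.8% ± 3.23 (SD, n = 3).

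Anxa2 was abundant and Anxa1 was low. Anxa2 (ENSMUSG00000032231.14, chromosome 9, 69453620 to 69491795) was at 168, 108 and 163 TPM (146 ± 33.6 TPM, SD, n = 3). It overlapped S100a13 in range, the only neighbouring pair among the detected members that did, and exceeded it in 2 of 3 libraries. Anxa1 (ENSMUSG00000024659.15, chromosome 19, 20373428 to 20390944), a glucocorticoid-induced protein that signals through formyl peptide receptors, was at 4.43, 3.72 and 7.98 TPM (5.38 ± 2.28 TPM, SD, n = 3). By mean TPM Anxa2 was 27.2 times as high as Anxa1. S100a1 (ENSMUSG00000044080.9, chromosome 3, 90511034 to 90514392), best known from heart and skeletal muscle, was at 2.53, 3.56 and 3.55 TPM (3.21 ± 0.592 TPM, SD, n = 3), from 21, 31 and 26 estimated counts. Its range lay below that of Anxa1.

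The calprotectin genes were at or near 0. S100a8 (ENSMUSG00000056054.9, chromosome 3, 90668978 to 90670035) had no count in any library. At these depths 0 counts leave room for 0.144, 0.141 and 0.162 CPM (counts scaled to the library total) in replicates 1, 2 and 3, for counting error only. S100a9 (ENSMUSG00000056071.12, chromosome 3, 90692632 to 90695721) had 0, 3 and 0 estimated counts, the 3 counts of replicate 2 being 0.47 TPM. Of 14 neutrophil markers, whose summed level was 9.27 to 11.9 TPM over libraries, 11 had at most 3 estimated counts in all. Among the 14, 6 (Ngp, Camp, Lcn2, Retnlg, Prtn3 and Ctsg) had no count in any library, and Mmp9, at 10.1 ± 1.39 TPM (SD, n = 3), was the single one detected. Detection here means 1 TPM or more in every library, which 8 of the 10 members met.

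**Figure D1:**
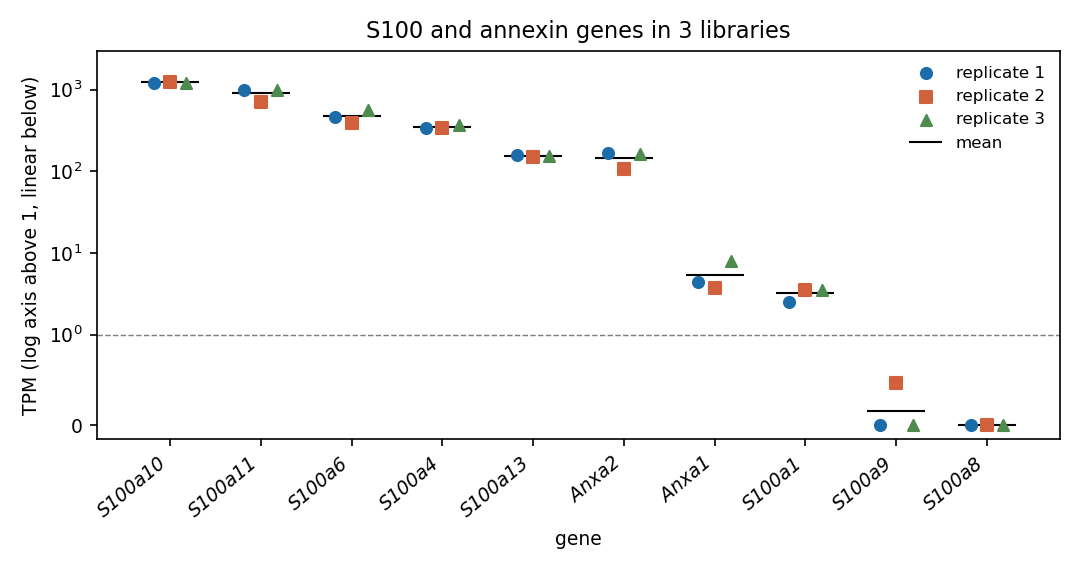
TPM of each of the 10 genes in the 3 libraries, ordered by mean, with the mean as a bar and the detection level of 1 TPM as a dashed line; the axis is logarithmic above 1 and linear below. The levels run from 1228 TPM for S100a10 to no count for S100a8, with a step between Anxa2 (146 TPM) and Anxa1 (5.38 TPM).

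The S100 genes lie in 2 groups at the ends of a 3054 kb stretch of chromosome 3, and high and low genes were close neighbours there. S100a1 and S100a13 run away from each other with 42 bases between their annotated ends, and S100a13 was at 154 TPM beside 3.21 TPM for S100a1. S100a5, a gene best known from olfactory neurons, lies between S100a4 and S100a6, which are 6836 bases apart. It had 0.687 ± 0.997 TPM (SD, n = 3) from 10 estimated counts in all, 9 of them in replicate 1. S100a3, a gene of the hair cuticle, starts upstream of S100a4 and was at 2.07 ± 0.964 TPM (SD, n = 3). S100a2, which was absent from the family list and is named after its value was seen, was at 1.15 ± 0.200 TPM (SD, n = 3). In the 185 kb from S100a1 to S100a9, 5 of 13 protein-coding genes were detected and 3 reached a mean of 100 TPM. Between S100a9 and S100a11 lie 2825 kb with 60 protein-coding genes, many of them genes of the skin barrier, and 1 of them was detected: Gm9774, at 16.2 ± 1.92 TPM (SD, n = 3). S100a11 and S100a10, on the far side, were the highest of the 75 genes in the whole stretch. The labels and files do not state whether counting used the strand. S100a1 and S100a13 do not overlap as annotated. On other chromosomes, Anxa1 and Anxa2 each overlap a gene on the opposite strand. These are 1500015L24Rik, with no count in any library, and Gm16144, at 0.363 ± 0.176 TPM (SD, n = 3).

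**Figure D2:**
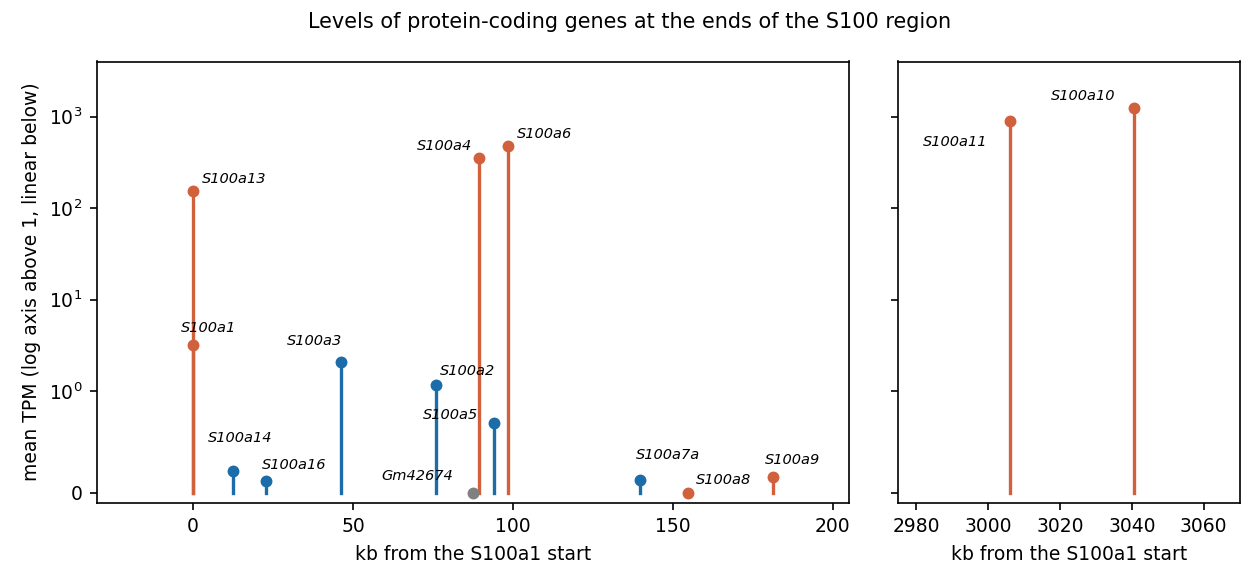
Mean TPM over 3 libraries (log axis above 1, linear below) of protein-coding genes by the distance of their start from the start of S100a1 in kb, at both ends of the stretch; the 2825 kb between S100a9 and S100a11 is left out. Described genes are orange, other S100 genes blue and another gene grey. S100a4 (351 TPM) and S100a6 (475 TPM) flank S100a5 (0.687 TPM).

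A single transcript carried nearly all RNA of most detected members with more than 1 annotated transcript. S100a11 and S100a13 have 1 annotated transcript each, so their share is fixed by the annotation. S100a10-201 held 99.7% ± 0.105 of the S100a10 TPM, S100a4-201 99.9% ± 0.105, Anxa2-201 96.7% ± 1.40 and Anxa1-208 all of the Anxa1 TPM, of 8 annotated Anxa1 transcripts (SD, n = 3). S100a6 was the exception. S100a6-203, which begins with an exon of 78 bases at chr3:90613305-90613382, held 78.3, 77.9 and 80.0% of the S100a6 TPM in replicates 1, 2 and 3 (78.7% ± 1.07, SD, n = 3). S100a6-201 starts 423 bases further upstream with an exon of 345 bases at chr3:90612882-90613226 and held 20.8, 21.4 and 19.1% (20.5% ± 1.19, SD, n = 3). Both share all later exons and encode the same 89 codons, so they differ in the start and the untranslated first exon. As shares of estimated counts, without division by length, they held 69.7 and 29.7%. The order was the same in every library. A retained-intron transcript and a nonsense-mediated decay transcript of S100a6 held 0.743 and 0.0574% on average.

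**Figure D3:**
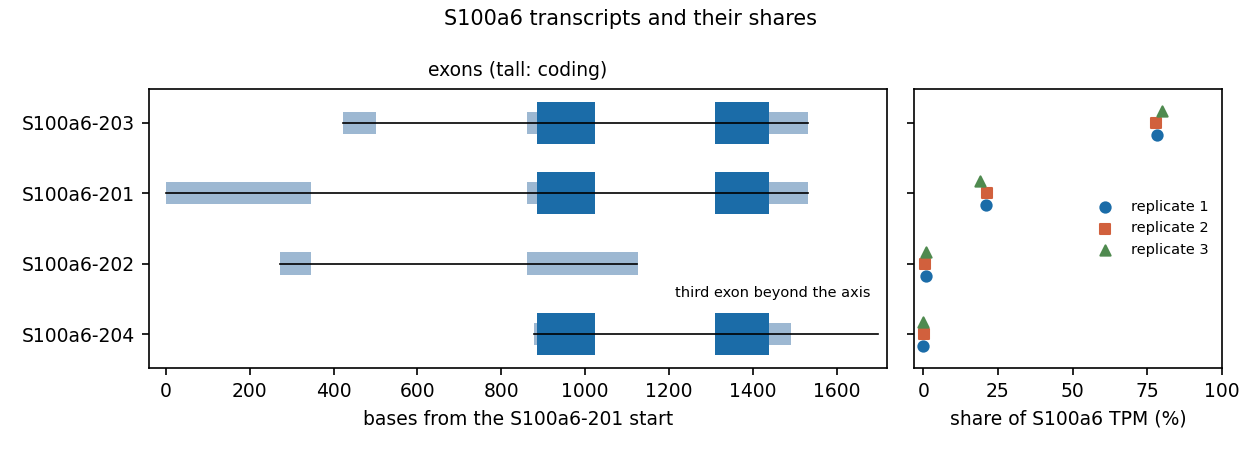
Exons of the 4 annotated S100a6 transcripts by distance in bases from the S100a6-201 start (left, coding parts tall) and each transcript's share of S100a6 TPM in percent per library (right). S100a6-203 lies between 77.9 and 80.0% and S100a6-201 between 19.1 and 21.4%.

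Levels of partners within a complex were far from equal. S100a10 was 7.27, 11.5 and 7.48 times as high as Anxa2 in replicates 1, 2 and 3, a log2 TPM ratio of 3.10 ± 0.37 (SD, n = 3). Replicate 2 stood apart because Anxa2 was low there while S100a10 was not. S100a11 was 227, 193 and 123 times as high as Anxa1 (log2 ratio 7.45 ± 0.46, SD, n = 3). S100a4 and S100a6, compared as neighbours in the genome and not as a complex, were closer. Their ratio was 0.726, 0.863 and 0.666 (log2 ratio -0.42 ± 0.19, SD, n = 3). RNA levels do not give the amounts of the proteins.

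The other family genes were measured for comparison. Of 17 S100 symbols listed, 16 had a gene in GENCODE M21 and 7 were detected, of which 6 are among the 10 genes described. Within that list, which leaves out S100a2, the highest others were S100a3, S100a5, S100z (0.440 TPM) and S100g (0.240 TPM), and the lowest were S100a16 (0.113 TPM) and S100b (0.0700 TPM). Of 12 annexins, 8 were detected. Anxa6, a large annexin of membranes and endosomes, was the highest annexin at 507.6 ± 20.3 TPM (SD, n = 3), above Anxa2. Anxa5, which binds exposed phosphatidylserine, followed at 171 ± 11.4 TPM, with Anxa7 at 51.3 ± 4.55 TPM and Anxa11 at 50.2 ± 1.87 TPM (SD, n = 3). Anxa8 and Anxa10, each with 1 estimated count in all, were the lowest annexins.

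Among 19 partners, receptors and related calcium-binding proteins, 16 were detected. The highest were Sri (699 ± 17.7 TPM), which encodes the calcium-binding protein sorcin, Myh9 (388 ± 6.93 TPM), the myosin heavy chain that S100a4 binds, Bsg (246 ± 23.0 TPM), an S100a9 receptor, and Pdcd6 (158 ± 6.40 TPM), a calcium-binding protein that binds annexins (SD, n = 3). Fpr2, a receptor for Anxa1, was at 0.233 ± 0.182 TPM (SD, n = 3) from 8 estimated counts, and Fpr3 had no count. The next genes are named beyond the naming rule, with their values seen. Fpr1, a further formyl peptide receptor, was detected at 1.16 ± 0.225 TPM (SD, n = 3). Of the S100 receptors, Ager was at 1.82 and Tlr4 at 1.5 TPM. Ahnak, a scaffold of the S100a10 and Anxa2 tetramer, was at 100.3 ± 8.57 TPM (SD, n = 3).

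The libraries held 18496690 (replicate 3) to 21206219 (replicate 2) estimated counts. All 7 regulatory T cell markers checked were detected, among them Foxp3 at 90.1 ± 6.76 TPM (SD, n = 3). Summed over the 7, these markers held 3391 to 3575 TPM. The 7 include Cd3e, at 1328 ± 40.7 TPM, and Cd4, at 264 ± 20.6 TPM (SD, n = 3), which are not particular to regulatory T cells. Hba-a2, the highest erythroid marker, was at 391 ± 54.9 TPM (SD, n = 3), above Foxp3. Markers of other cells summed to less than the 7, over lists of differing size. Their summed TPM over libraries ranged from 95.7 to 132 for 12 monocyte and macrophage markers, from 63.3 to 72.8 for 8 B cell markers, from 3.81 to 6.51 for 11 epithelial and stromal markers, and from 911 (replicate 1) to 1273 (replicate 2) for the 7 erythroid markers found of 8 listed. In bulk RNA, fewer cells of a type and less RNA per cell cannot be told apart.

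Whether the 10 genes varied beyond counting noise was examined across the 3 libraries. Of the 8 genes with the 30 summed counts that testing needed, 6 differed between libraries (Pearson's chi-square test on estimated counts, adjusted p below 0.05), beside 44.9% of the 14641 genes tested. Sensitivity of this test grows with a gene's count. Among genes with a mean count of 1000 or more 66.5% differed, beside 5 of the 6 members at that depth, so the members' count is near that background. In 4 of the 8 tested genes, S100a11, S100a6, Anxa2 and Anxa1, the difference came with the lowest level in replicate 2, a combination that 16.4% of all tested genes showed. Among the 6575 genes that differed, replicate 2 was lowest in 2404, beside these 4 of 6 members. A share at the members' depth was not computed. For Anxa1, replicates 1 and 2 were alike.

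Anxa1 varied most. It had 92, 81 and 148 estimated counts in replicates 1, 2 and 3, or 4.43, 3.82 and 8.0 CPM, a 2.09-fold range (chi-square test, adjusted p = 6.95e-08). Replicate 3 was high and the other two were alike, and without replicate 3 the call was lost (adjusted p = 0.491). Anxa1 was the single member that still differed when the test allowed for a spread of 11.5% between libraries beyond counting noise, the common coefficient of variation edgeR estimated from the same 3 libraries (adjusted p = 0.0172). Under that allowance 2.78% of all tested genes differed.

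Anxa2, S100a11 and S100a6 varied less and with replicate 2 lowest. Anxa2 was at 146, 97.4 and 144 CPM, a 1.5-fold range (chi-square test, adjusted p = 3.35e-52). S100a11 was at 295, 216 and 288 CPM, a 1.37-fold range (adjusted p = 6.12e-64). For both, replicates 1 and 3 were alike, and without replicate 2 neither differed (adjusted p = 0.732 for Anxa2 and 0.387 for S100a11). S100a6 was at 139.8, 121 and 167 CPM, a 1.38-fold range (adjusted p = 1.19e-30), with no library pair alike. With the 11.5% allowance in the chi-square test the adjusted p was 0.403 for Anxa2, 0.752 for S100a11 and 0.782 for S100a6. A simulation with a larger allowance, in counts and test alike, called 8% of 1.5-fold changes. It does not give the share missed at 11.5%.

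S100a4, S100a10, S100a13 and S100a1 varied little or could not be resolved. S100a4 was at 97.0, 99.5 and 107 CPM (chi-square test, adjusted p = 0.0137), a call lost without replicate 1 (adjusted p = 0.0604) or replicate 3 (adjusted p = 0.554). S100a10 was at 494, 516 and 495 CPM, a 1.04-fold range that passed the chi-square test through its depth (adjusted p = 0.00576) and was lost without replicate 2 (adjusted p = 0.900). S100a13 was at 66.9, 64.4 and 66.3 CPM and did not pass (adjusted p = 0.656). S100a1, at 1.01, 1.46 and 1.41 CPM, did not pass either (adjusted p = 0.486), so at 78 summed counts its 1.45-fold range was not detectable as a difference. The coefficients of variation were 2.03% for S100a13, 2.46% for S100a10 and 41.7% for Anxa1, where the median was 7.30% over the 9957 tested genes with a mean count of 100 or more.

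Markers of other cells also differed between these libraries. Of the 11 monocyte and macrophage markers tested, 6 differed, all with replicate 2 lowest: C1qb, C1qa, Cd68, Csf1r, Adgre1 and Fcgr3. Over all tested genes 44.9% differed, and 16.4% differed with replicate 2 lowest. C1qb, a complement gene of tissue macrophages, was at 22.1, 11.7 and 21.2 TPM in replicates 1, 2 and 3. Csf1r, the receptor for their growth factor, is named beyond the naming rule with its values seen, and was at 9.14, 5.48 and 9.66 TPM. Replicate 2 was low and the other two alike for both, as for Anxa2 and S100a11, whereas Anxa1 was set apart by a high replicate 3 and S100a6 differed between all libraries. Ccr2, the highest of the 12 markers, was at 41.4, 41.2 and 44.8 TPM and did not pass. The summed TPM of the list was 125, 95.7 and 132, and no marker of the 12 was without counts. Erythroid markers moved the other way: of 7 tested, 5 differed, all with replicate 2 highest and replicate 1 lowest, and their summed TPM was 911, 1273 and 1149. The part of either kind of cell in the levels of Anxa1, Anxa2, S100a6 and S100a11 was not tested. Of the 8 S100 and annexin genes outside the members that were tested, 2 differed: Anxa6, lowest in replicate 1, and Anxa5, lowest in replicate 2. Of 17 partners and receptors tested, 9 differed, 2 of them with replicate 2 lowest.

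**Figure D4:**
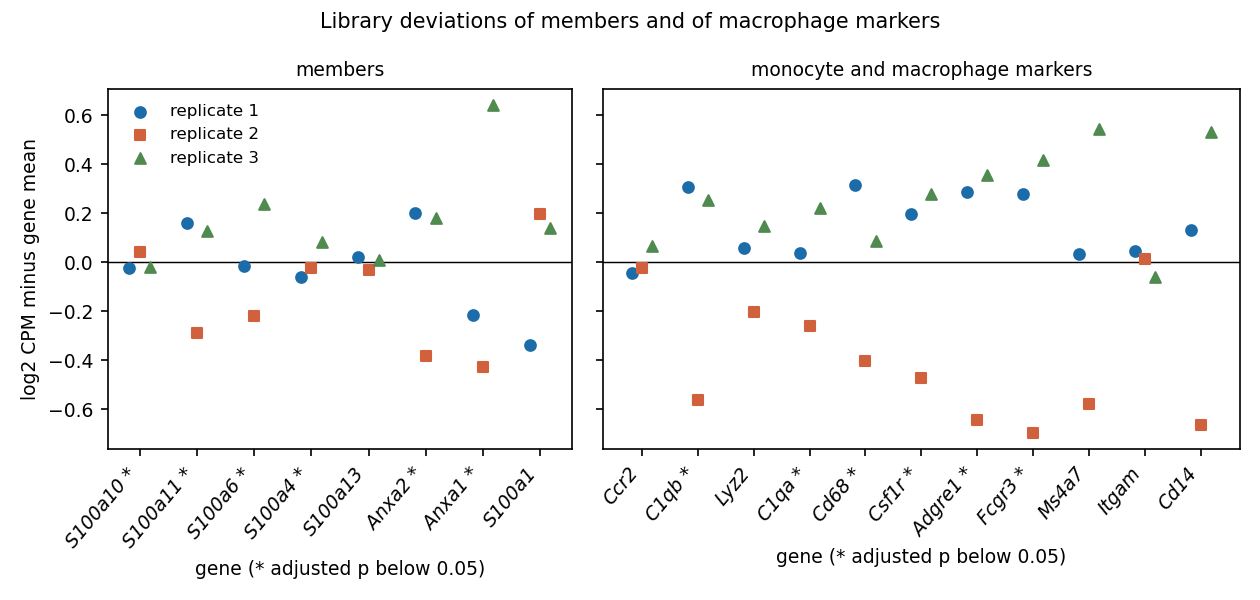
Deviation of log2 CPM from each gene's mean over 3 libraries, for the 8 tested members (left) and 11 tested monocyte and macrophage markers (right), each ordered by mean TPM; asterisks mark an adjusted p below 0.05. Replicate 2 lies lowest for S100a11, S100a6, Anxa2 and Anxa1 and for all 6 macrophage markers that differed.

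The second deposited gene table gave a different picture for the abundant members. It holds whole-number counts on GENCODE M4 and in all 30.3, 29.3 and 31.1% as many counts as the larger table. Its counts for S100a10 were 650, 649 and 648 in replicates 1, 2 and 3, and for S100a11 215, 215 and 216. Counts of that size would scatter by far more from counting noise alone: the variance over the libraries was 0.00154 times the mean for S100a10 and 0.00155 times the mean for S100a11, where counting noise gives 1. S100a6 had 588, 579 and 581 counts and S100a4 521, 538 and 535. These 4 genes held 6.41, 4.02, 20.4 and 26.1% as many counts as in the larger table, S100a13 and Anxa2 40.2 and 46.4%, and the low genes S100a1 and Anxa1 62.8 and 78.8%. Of 10855 genes tested on these counts 23.2% differed between libraries, and of the members Anxa1 (73, 57 and 123 counts) and Anxa2 (1326, 1046 and 1231 counts) did, with the same library lowest as before. S100a11 and S100a6 did not (chi-square test, adjusted p = 0.723 and 0.481). That test assumes counting noise, and the variance of S100a6 was 0.0383 times the mean here. For counts this constant the test cannot decide whether the levels differed.

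**Figure D5:**
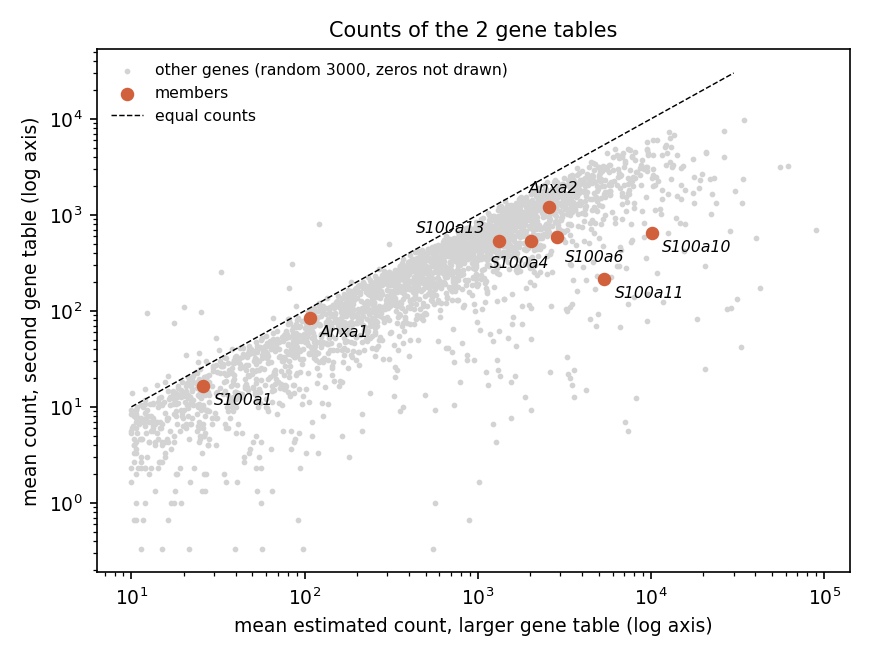
Mean count over 3 libraries in the second gene table against the mean estimated count in the larger one, both on log axes, for the 8 members with a mean estimated count of 10 or more (orange) and 3000 other genes drawn at random (grey); the dashed line marks equal counts. S100a10 and S100a11 lie furthest below the line, at 6.41 and 4.02% of their estimated counts, and Anxa1 lies nearest to it of the 8 at 78.8%.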

How the data were processed

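For every library the authors deposited a gene and a transcript table on mm10 and GENCODE M21, with RSEM's column names per the file headers, and a second gene table on GENCODE M4. No source used here names the aligner, its version or the strand setting. The deposited estimated counts divide reads that fit several features. The deposited TPM and FPKM values are scaled to effective length and depth, and the deposited transcript percent values are shares of a gene's TPM. The second deposited table holds whole-number counts per gene, and its counting method is not stated.

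Rows that name no gene (0.189 to 0.271% of counts) were left out of totals. Rounded estimated counts of each gene were set against library totals in a Pearson chi-square test (2 degrees of freedom), for genes with 30 or more summed counts, with Benjamini-Hochberg adjustment over all 14641 genes. With 1 group, edgeR's group test has no contrast. Sequences came from GENCODE M21 transcripts. The test was tried on simulated counts. With a dispersion larger than the common dispersion added to both counts and test, it called far fewer true changes. Alternatives were TMM and DESeq2 scaling, other filters, a deviance statistic, an added common dispersion, the second table, other TPM thresholds, pseudocounts, FPKM and leaving out each library. All 10 members are named; of the other family and partner lists the 4 highest and 2 lowest were to be named, and genes outside this rule are marked or belong to a count. Members and lists were chosen with earlier results of these data known. Tests ran in Python 3.11.15 with scipy 1.17.1 and statsmodels 0.14.6, and scaling in edgeR 4.0.16 and DESeq2 1.42.0 under R 4.3.3.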

Additional observations from a re-analysis of the deposited data

How the results depend on the processing

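The members' levels kept within their SD when TPM was rescaled over rows that name a gene. The partner ratios did so with pseudocounts and with FPKM. Leaving out a library could not show otherwise, because with 3 libraries the mean cannot then move by a full SD. Detected members fell from 8 to 6 at a threshold of 5 or 10 TPM, and annexins likewise, S100 genes from 7 to 5 and partners from 16 to 13. At 0.5 TPM annexins numbered 9 and partners 17. TMM and DESeq2 scaling moved no library by more than 0.01 on the log2 scale and kept all 6 members that differed. With the common dispersion added, 407 genes in all and 1 member differed. On the counts of the second gene table, the number was 2516 genes and 2 members. There the counts of S100a4, S100a6, S100a10 and S100a11 scattered less than the test assumes. Leaving out each library in turn gave between 3782 (without replicate 2) and 4701 (without replicate 3) genes and between 3 (without replicate 2) and 5 members, against 6575 genes and 6 members with all libraries. The log2 difference of S100a11, replicate 1 over replicate 2, was -0.0183 in the second table against 0.45, and its counts there hardly varied; the cause was not tested. S100a8 and S100a9 had too few counts for a library test or a ratio. No paired analysis was possible because there is 1 group.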

Other observations

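The near-constant counts of S100a10 and S100a11 in the second gene table had a counterpart among other abundant genes. Over the 269 genes with a mean estimated count of 10000 or more in the larger table, the median variance over the mean between libraries was 0.350 in the second table, and the median gene held 10.8% as many counts as in the larger one. For the 1814 genes with a mean estimated count of 100 to 300 these medians were 2.29 and 51.7%. Per kilobase of transcript, the second table gave 948 counts for S100a10, 1123 for S100a6, 1068 for S100a4 and 846 for Anxa2, 747 for S100a13, 421 for S100a11 and 52.0 for Anxa1, so S100a11 stood below S100a6 despite more estimated counts (5353 against 2854). The cause of these counts was not tested.

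The credibility intervals deposited beside the TPM values lay below the TPM itself for the abundant members. S100a10 in replicate 1 was at 1221 TPM with an interval of 1071 to 1113, and the TPM lay outside the interval in all 3 libraries for S100a4, S100a6, S100a10, S100a11, S100a13 and Anxa2. Over the 8191 genes with a mean of 10 TPM or more, the TPM lay above its interval for 54.3, 51.7 and 55.4% in replicates 1, 2 and 3. The intervals were therefore not used as errors here.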
